A study of Mus musculus with 9 samples.

Results

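The mouse genes described here are the numbered zinc finger genes, named Zfp with a number below 500 and nothing else, and the measurement is whether the chromatin regulator BAP1 was bound at their transcription start sites (TSSs). The GENCODE M1 annotation holds 167 such protein-coding records under 166 symbols, of 22367 protein-coding genes on the nuclear chromosomes, with 1 symbol in this range not analysed here. They were split by position into 89 clustered genes, with another Zfp gene of any number within 100 kb, and 78 isolated genes without one. The symbol Zfp319 has 2 records, and records of the same name were not counted as neighbors.

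BAP1 binding was mapped by ChIP-Seq in Ba/F3, an established mouse line of B cell precursors that grows with IL-3. The list of peaks came from 2 immunoprecipitations, 1 from wild type cells with 52.8 μg of an antibody against BAP1, and 1 from cells with a stably introduced murine BAP1 that carries a triple FLAG tag, kept under puromycin, with 5 μg of an antibody against FLAG. The series has 9 samples, of which 4 are input DNA and 3 are H2AK119ub immunoprecipitations, 2 of these from clones of Bap1 knockout cells. These 7 were not analysed here. The level of the tagged protein relative to the endogenous one was not measured in the data used here, and each BAP1 immunoprecipitation was sequenced once, so no value below has a replicate error. The list gives 13164 intervals of 200 bp with no height or score, and does not say in which sample a peak was called. A gene is called bound here when the middle of a peak lay within 1 kb of any of its TSSs, and 10073 of the peaks are gene-proximal in this sense for some gene. Intervals in brackets are 95% Wilson intervals for shares and 95% Newcombe intervals for differences, and they cover counting error only. Genes of a cluster may have arisen by duplication, which was not measured here. They cannot be taken as independent, so these intervals are likely too narrow.

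The Zfp genes encode proteins built around the zinc finger, a short fold in which cysteine and histidine residues hold a zinc ion and a helix reads DNA bases. Most of them carry a row of C2H2 fingers, and many begin with a KRAB box, which recruits the corepressor TRIM28 and with it histone methylation and heterochromatin, best known at endogenous retroviruses. In the mouse many of these genes lie in arrays made by repeated local duplication, and several arrays are still growing. BAP1 is a deubiquitinase that removes ubiquitin from histone H2A, at the mark H2AK119ub, which Polycomb complexes place.

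The name was checked against the proteins. Of the 167 records, 160 encode at least 1 C2H2 finger by the pattern of cysteines and histidines, with 36 in Zfp142 as the highest number. Clustered genes had a median of 12 fingers and isolated genes a median of 8.0. The 7 records without a finger include Zfp36, which encodes the mRNA-destabilizing protein tristetraprolin with fingers of another class, and the second record of Zfp319, an open reading frame of 106 residues. A strict KRAB box pattern was found in 53 members, 41 of them clustered and 12 isolated. This pattern was searched in the longest coding sequence of each gene, so a KRAB box that departs from it, or lies in another transcript, is not counted.

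The 8 sequences that follow show what lies under the peaks, read from the NCBIM37 (mm9) genome, 5′ to 3′ on the strand of the gene. The first 6 are whole peaks, which span an annotated TSS of the gene, and were chosen to show clustered, isolated, divergent and CpG-poor bound genes. The last 2 are windows of 200 bp around the TSS of the longest transcript of unbound genes from the same cluster as Zfp235, and were chosen after their values were seen. Capitals mark the words TCTGGGAA and GGACTACA (described with the motifs), and the ETS word CCGGAAG, the CRE word TGACGTCA, the NFY word CCAAT, the NRF1 word GCGCATGC and the YY1 word AAGATGGC, all on either strand.
Zfp235 (clustered, bound; chr7:24919051-24919250, plus strand): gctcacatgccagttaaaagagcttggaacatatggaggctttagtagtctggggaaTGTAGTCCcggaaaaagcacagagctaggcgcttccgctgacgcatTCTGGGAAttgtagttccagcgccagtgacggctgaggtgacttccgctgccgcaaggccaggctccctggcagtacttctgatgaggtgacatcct
Zfp84 (clustered, bound; chr7:30553492-30553691, plus strand): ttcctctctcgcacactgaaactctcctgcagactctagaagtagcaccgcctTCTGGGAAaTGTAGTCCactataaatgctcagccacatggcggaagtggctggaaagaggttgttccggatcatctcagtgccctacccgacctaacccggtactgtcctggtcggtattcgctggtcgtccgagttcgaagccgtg
Zfp1 (isolated, bound; chr8:114167281-114167480, plus strand): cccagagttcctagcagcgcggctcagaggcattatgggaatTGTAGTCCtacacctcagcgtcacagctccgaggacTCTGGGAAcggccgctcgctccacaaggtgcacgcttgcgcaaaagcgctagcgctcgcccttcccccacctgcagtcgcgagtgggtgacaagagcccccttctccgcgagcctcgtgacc
Zfp473 (isolated, bound, divergent from Vrk3; chr7:52003890-52004089, minus strand): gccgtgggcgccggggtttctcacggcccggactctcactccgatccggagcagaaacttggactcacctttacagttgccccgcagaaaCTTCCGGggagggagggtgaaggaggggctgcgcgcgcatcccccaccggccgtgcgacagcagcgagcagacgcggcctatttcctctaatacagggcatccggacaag
Zfp207 (isolated, bound; chr11:80196673-80196872, plus strand): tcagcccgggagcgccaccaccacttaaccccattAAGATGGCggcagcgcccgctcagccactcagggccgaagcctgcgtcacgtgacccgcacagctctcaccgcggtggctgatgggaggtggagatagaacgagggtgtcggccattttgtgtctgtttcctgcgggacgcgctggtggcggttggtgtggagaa
Zfp345 (clustered, bound, poor in CpG; chr2:150310785-150310984, minus strand): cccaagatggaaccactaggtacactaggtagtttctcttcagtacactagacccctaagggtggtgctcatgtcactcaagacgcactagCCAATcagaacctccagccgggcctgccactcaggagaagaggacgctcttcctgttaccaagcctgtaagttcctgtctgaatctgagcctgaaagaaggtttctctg
Zfp112 (clustered, no peak; chr7:24897233-24897432, plus strand): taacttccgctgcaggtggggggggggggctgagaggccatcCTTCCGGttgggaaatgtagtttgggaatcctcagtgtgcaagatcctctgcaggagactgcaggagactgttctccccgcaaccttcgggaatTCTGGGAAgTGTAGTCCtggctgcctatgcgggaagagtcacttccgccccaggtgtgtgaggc
Zfp93 (clustered, no peak; chr7:25055339-25055538, plus strand): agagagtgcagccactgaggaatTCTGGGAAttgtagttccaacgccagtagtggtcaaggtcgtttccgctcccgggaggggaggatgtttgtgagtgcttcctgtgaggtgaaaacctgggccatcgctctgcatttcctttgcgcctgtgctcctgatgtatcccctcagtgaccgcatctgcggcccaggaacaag
The words TCTGGGAA and GGACTACA both occur in the peaks of Zfp235, Zfp84 and Zfp1. Of all 142 peaks at members only 4 held both words and 22 held either, so the peaks shown here are not typical in this respect. Zfp112, without a peak, holds both as well, and Zfp93, also without a peak, holds TCTGGGAA. The peak of Zfp207 has the YY1 word, the first peak of Zfp473 the ETS word, and the peak of Zfp345 the NFY word.

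BAP1 was bound at most of these genes. Of the 167 members, 109 had a gene-proximal peak, or 65.3% (57.8 to 72.1), beside 39.6% of all protein-coding genes. Among protein-coding genes outside the group the share was 39.4%, and the difference was 25.9 percentage points (18.4 to 32.7). When peaks nearer to a TSS of another gene than to one of the gene itself were left out, with ties kept, the shares were 62.9% of the members and 35.1% of all protein-coding genes. In this list the numbered genes were thus more often bound than protein-coding genes in general. The interval of the difference covers counting error only and takes genes as independent, and the members were chosen with earlier results of these data known.

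Isolated members had a higher share than clustered ones, but the difference was within the counting error. A peak was present at 56 of 78 isolated members, or 71.8% (61 to 80.6), and at 53 of 89 clustered members, or 59.6% (49.2 to 69.1). Clustered minus isolated gave -12.2 points (-25.8 to 2.22), an odds ratio of 0.578 (0.302 to 1.11). In clusters of 2 or 3 Zfp genes 20 of 32 members were bound, or 62.5% (45.3 to 77.1), and in clusters of 4 or more 33 of 57, or 57.9% (45 to 69.8). Both kinds of cluster lay above the background of 39.6%.

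The other families of zinc finger genes covered a wide range. They were taken by gene symbol, and the members were not searched for BTB or SCAN domains. Zfp genes numbered 500 or more, which are named by the same scheme, were bound in 103 of 176 cases, or 58.5% (51.1 to 65.5), and members minus these gave 6.75 points (-3.52 to 16.8). The share was 76.3% (60.8 to 87) of the 38 Zbtb genes, which pair fingers with a BTB domain, and 73.7% (51.2 to 88.2) of the 19 Zc3h genes, whose CCCH fingers mostly bind RNA. It was 47.1% (26.2 to 69) of the 17 Klf genes and 44% (26.7 to 62.9) of the 25 Zscan and Zkscan genes, which carry a SCAN domain. The intervals of the last pair of families include the background.

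**Figure D1:**
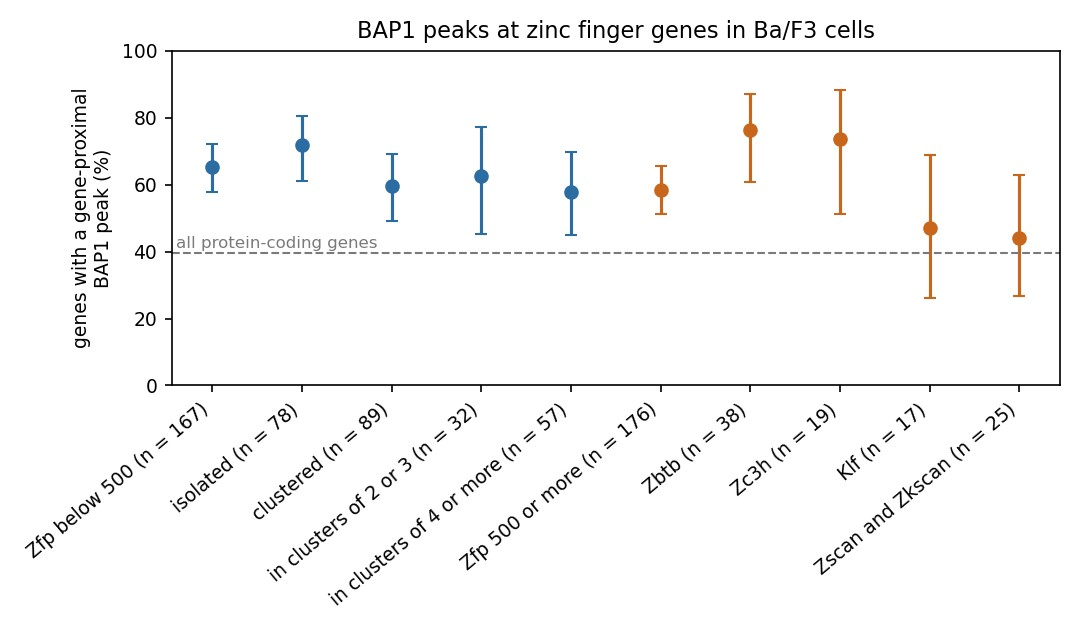
Share of genes with a gene-proximal BAP1 peak (y axis, percent) for the Zfp genes numbered below 500 and their subgroups (blue) and for other zinc finger families (orange). Points are shares, bars 95% Wilson intervals, and the dashed line is the share over all protein-coding genes, 39.6%. Isolated genes (71.8%) stand above clustered genes (59.6%) with overlapping intervals.

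The peaks of the members lay close to the TSS and mostly just upstream of it. The median distance from the middle of the nearest peak to the TSS was 42 bp, with quartiles of 16 and 77 bp, beside a median of 46 bp over the 8850 bound protein-coding genes. The middle was upstream of the TSS at 85 of the 109 bound members (78%), and within 100 bp of it at 90 (82.6%). The corresponding shares over all bound protein-coding genes were 75% and 77.8%. It was upstream at 37 of 53 clustered members (69.8%) and at 48 of 56 isolated members (85.7%).

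No member lay close to the limit of 1 kb. The bound members farthest from a peak middle were Zfp295 at 360 bp, Zfp428 at 349 bp and Zfp319 at 343 bp, while the unbound members with the nearest peaks were Zfp167 at 1676 bp, Zfp53 at 2323 bp and Zfp238 at 2625 bp. Of the 58 unbound members, 8 had a peak within 5 kb of a TSS, 7 of them clustered. At these 8 the nearest peak lay upstream, and the CpG ratio (defined with the clusters) was 0.088 to 0.358. Some of these peaks lay at another gene, as for Zfp53, Zfp87 and Zfp260. Whether the annotation misses a TSS at such members was not tested, and a missed TSS could make a bound gene count as unbound. No member had its nearest peak between 500 bp and 1 kb, against 221 of the 8850 bound protein-coding genes. No peak lay in the body of a member at more than 1 kb from every annotated TSS, whereas 958 of 22367 protein-coding genes (4.28%) held such a peak. Median gene lengths were 15.5 kb for members and 15.4 kb for all protein-coding genes.

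**Figure D2:**
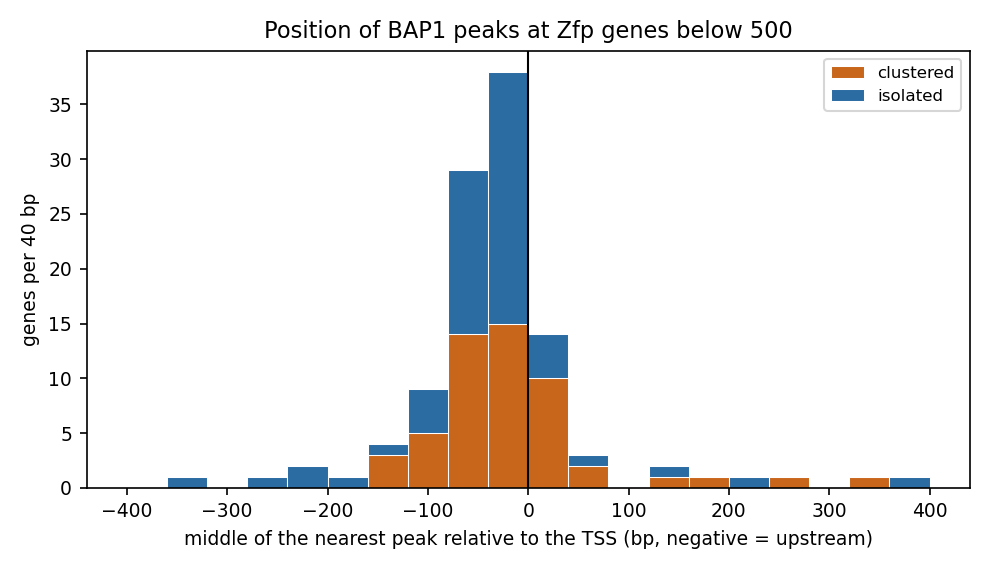
Position of the middle of the nearest BAP1 peak relative to the TSS (x axis, bp along the strand of the gene, upstream negative) for the 109 bound Zfp genes below 500, as genes per 40 bp (y axis). Clustered genes (orange) and isolated genes (blue) are stacked, and 85 of the 109 lie upstream of the TSS.

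The 109 bound members carried 142 different peaks, and no peak served 2 members. A single peak was present at 79 members, 2 peaks at 27 and 3 peaks at 3. The share of bound genes with more than 1 peak was 27.5% among members and 25.5% among all bound protein-coding genes. At Zfp1 the 3 peak middles lay 38, 386 and 500 bp downstream of the TSS. At Zfp362 they lay at -110, -558 and -955 bp, all upstream. At Zfp219 they lay 6354 bp apart at the extremes, near different annotated TSSs. Separate TSSs also carried the peaks of Zfp58, which were 25697 bp apart, and of Zfp148, which encodes a factor that binds GC-rich promoters, 19629 bp apart. In these 3 genes the peaks lay near more than 1 annotated TSS.

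Members with an opposite-strand TSS nearby were bound with a single exception. A TSS of another gene on the opposite strand lay within 1 kb of 19 members, called divergent here. Whether the paired genes point away from each other was not checked. A peak was present at 18 of these 19, or 94.7% (75.4 to 99.1), beside 39.6% of all protein-coding genes. The share among all protein-coding genes with such a neighbor was not counted, nor were CpG ratios compared, so this is not shown to be particular to Zfp genes. Of the other 148 members 91 were bound, or 61.5% (53.5 to 68.9), and the difference was 33.3 points (12.5 to 42.4). The partner was protein-coding in 9 cases, and all of these were bound. Examples are Zfp142 with Bcs1l, Zfp189 with Mrpl50, Zfp277 with Dock4 and Zfp473 with Vrk3. The unbound member was Zfp52, whose opposite-strand neighbor is 9330136K24Rik and whose CpG ratio is 0.346. Which of both genes such a peak belongs to cannot be told apart from its position. At Zfp39, Zfp276, Zfp319 and Zfp408 the nearest TSS was that of another gene.

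Most clusters held bound and unbound genes side by side. Over the genome 374 Zfp gene records were found, 199 of them in 48 clusters, and 33 clusters held a member. In 9 of these 33 every Zfp gene was bound, in 6 none was, and 18 were mixed. Of the 15 clusters that held a member and 4 or more Zfp genes, 3 were bound throughout, 2 not at all and 10 were mixed.

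The cluster at chr7:24866943-25101685 consists of 10 members, of which 4 were bound. The bound genes are Zfp180, with its nearest peak middle 122 bp upstream of the TSS, Zfp235 at 42 bp upstream and Zfp94 at 82 bp upstream, and Zfp61, whose peak middle lies 137 bp from each of a pair of its TSSs and was counted as upstream. The CpG ratios of these genes (Zfp180, Zfp235, Zfp94 and Zfp61), the observed over the expected number of CpG dinucleotides within 500 bp of the TSS, were 0.712, 0.552, 0.719 and 0.698. The unbound genes Zfp112, Zfp114, Zfp111, Zfp109, Zfp108 and Zfp93 had ratios of 0.403, 0.323, 0.405, 0.418, 0.112 and 0.334. In this array the ratios of bound and unbound genes did not overlap. The fingers did not separate them, with 8 to 15 in the bound and 10 to 14 in the unbound genes.

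The ratios overlapped in 2 of the 6 clusters of 4 or more Zfp genes that hold bound and unbound members, and in 1 of the other 4 only a single bound and a single unbound member were compared. The cluster at chr7:30553571-30954746 has 14 Zfp genes, of which 11 were bound. Its bound members are Zfp84, Zfp420, Zfp27, Zfp74, Zfp82, Zfp382 and Zfp146, and its unbound members Zfp30, Zfp14 and Zfp260, with ratios of 0.521 to 0.822 and of 0.263 to 0.571. The largest cluster, chr13:67139530-67654065, holds 17 Zfp genes with 10 bound. Its members Zfp458, Zfp457, Zfp456 and Zfp58 were bound, and Zfp455, Zfp429, Zfp459 and Zfp87 were not, with ratios of 0.335 to 0.443 and of 0.177 to 0.398. At chr17:21520712-21725664, Zfp54 and Zfp51 were bound (0.389 and 0.541), whereas Zfp53 and Zfp52 were not (0.088 and 0.346). At chr17:33378464-33531586, Zfp101 was bound and Zfp81 was not, at nearly equal ratios of 0.696 and 0.690. At chr7:6083091-6347755, Zfp444 and Zfp28 were bound (0.681 and 0.602) and Zfp78 was not (0.125).

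Other clusters were uniform. All 5 genes at chr7:13390326-13569689 were bound, namely Zfp329, Zfp110, Zfp128, Zfp324 and Zfp446, with a median CpG ratio of 0.624. All 7 Zfp genes at chr6:47769265-48036592 were bound, among them Zfp398, Zfp282 and Zfp212, with a median ratio of 0.849, and all 5 at chr9:20149580-20399638, among them Zfp26, Zfp426 and Zfp266, with a median ratio of 0.752. None of the 6 at chr7:28516408-28770815 was bound, which include Zfp60 and Zfp59, and the median ratio there was 0.164. None of the 5 at chr11:50624588-50745135 was bound, which include Zfp454 and Zfp2, with a median ratio of 0.536.

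**Figure D3:**
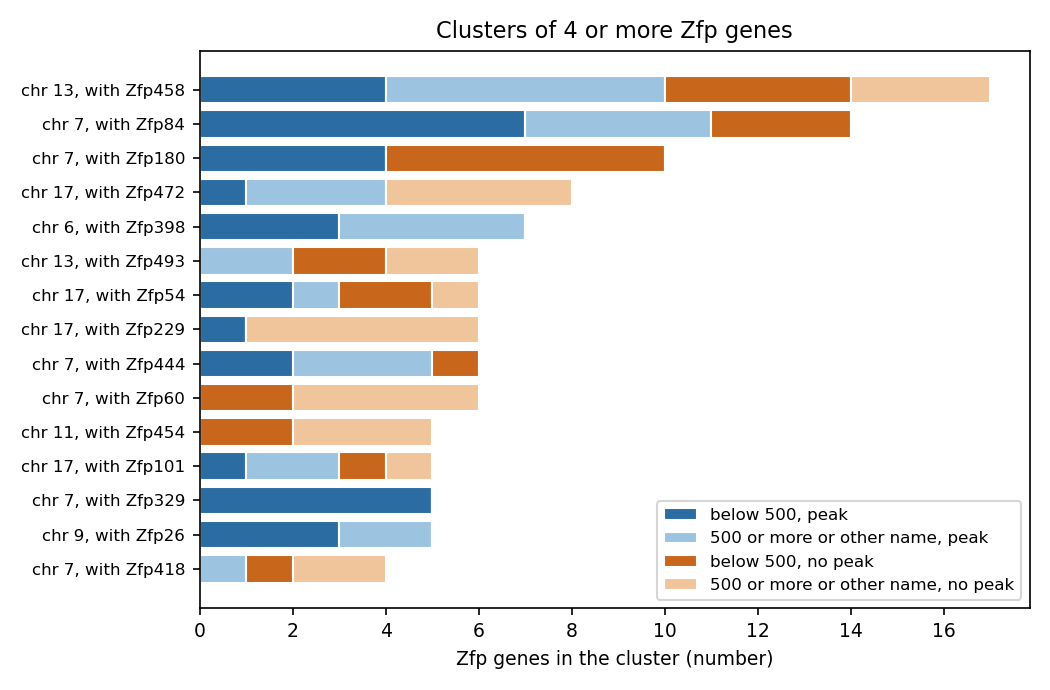
Zfp genes with and without a gene-proximal BAP1 peak in the 15 clusters that hold 4 or more Zfp genes and at least 1 numbered below 500 (x axis, number of genes, 1 bar per cluster named by its chromosome and a gene). Dark colors are genes numbered below 500, light colors the other Zfp genes, blue with and orange without a peak, and 10 of the 15 bars hold both colors.

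Unbound members differed in how far away BAP1 was. Of the 58 unbound members, 33 (56.9%) had a peak within 50 kb of a TSS. The matching share over unbound protein-coding genes was not counted, so this share has no background beside it. The median distance was 35.4 kb for the 36 clustered and 116.1 kb for the 22 isolated ones. For 12 of the 26 clustered unbound members with a peak within 50 kb, that peak lay at the TSS of another Zfp gene. An example is Zfp112, whose nearest peak is that of Zfp235 at 21.7 kb. Clustered members have another Zfp gene within 100 kb by definition, so this count follows in part from the split. The farthest was Zfp42 (also known as Rex1), a marker of pluripotent cells, at 1200.9 kb.

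The CpG ratio of the promoter moved with binding in both groups. Its median was 0.681 in bound and 0.400 in unbound members, 0.552 in clustered and 0.672 in isolated members, and 0.546 over all protein-coding genes. The share of bound members was 16.7% (6.68 to 35.9) of the 24 with a ratio under 0.3 and 37.9% (22.7 to 56) of the 29 from 0.3 to 0.5. It was 76.7% (64.6 to 85.6) of the 60 from 0.5 to 0.7, 85% (70.9 to 92.9) of the 40 from 0.7 to 0.9, and 100.0% (78.5 to 100.0) of the 14 at or above 0.9. The shares over all protein-coding genes in the same ranges were 6.51%, 17.1%, 51.9%, 72.5% and 77.4%. The interval of the members lay above the share of all genes from 0.3 to 0.7, above it by small margins under 0.3 and at or above 0.9, and included it from 0.7 to 0.9. The margin under 0.3 depends on the TSS at which the ratio is taken, as described below.

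Split by CpG ratio, the clustered and isolated members differed by fewer points in each part. Among members with a ratio of 0.7 or more both groups were bound in 88.9% of cases, a difference of 0 points (-22.7 to 16.3). Under 0.7 the shares were 52.1% of clustered and 57.1% of isolated members, a difference of -5.03 points (-22.9 to 13.6). With a split at the members' median of 0.631, the difference was -7.76 points (-24.9 to 7.84) at or above it and 1.47 points (-20.2 to 22.5) below. These intervals are wide, and the part of CpG content in the contrast was not tested.

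**Figure D4:**
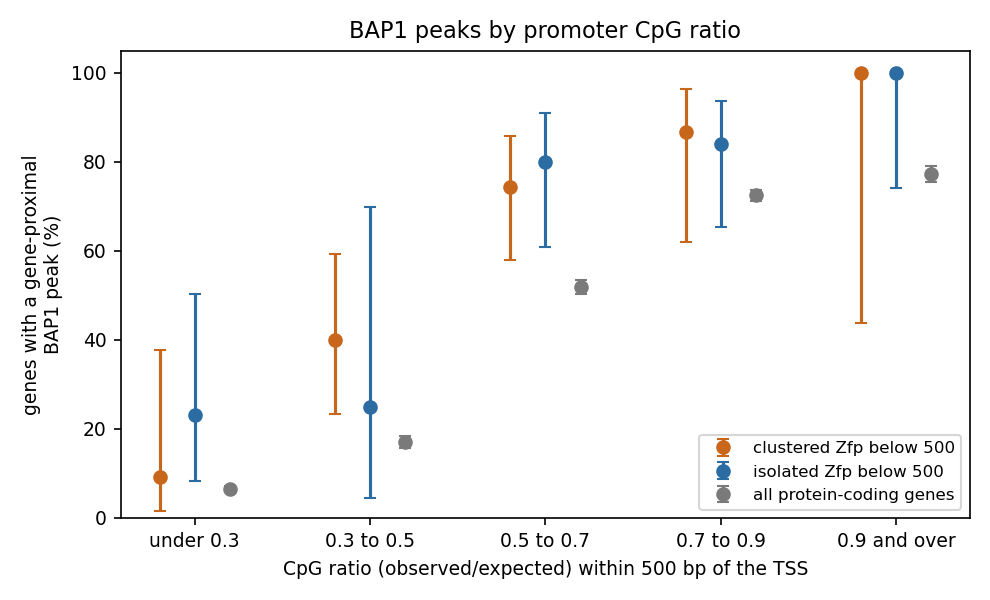
Share of genes with a gene-proximal BAP1 peak (y axis, percent) by the CpG ratio within 500 bp of the TSS of the longest transcript (x axis, 5 ranges) for clustered (orange) and isolated (blue) Zfp genes below 500 and all protein-coding genes (gray), with 95% Wilson intervals. The share is higher in the ranges above 0.5 in all 3 groups, and clustered and isolated genes overlap in every range.

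Some members stood apart from this order. The bound members with the lowest ratios were Zfp62 at 0.139, Zfp207 at 0.166, Zfp345 at 0.169, Zfp473 at 0.194 and Zfp442 at 0.334. The ratio is taken at the longest transcript, and at the TSS nearest to the peak it was 0.688 for Zfp62, 0.760 for Zfp207 and 0.612 for Zfp473, but stayed at 0.169 for Zfp345 and 0.334 for Zfp442. With the highest ratio of any TSS of a gene, 1 of 18 members under 0.3 was bound, or 5.56% (0.988 to 25.8). This interval includes the 6.51% of all protein-coding genes, which was taken at the longest transcript, so the margin of members under 0.3 was not seen with this measure. The share of all genes was not counted on it. The isolated unbound members with the highest ratios were Zfp423 at 0.823, Zfp3 at 0.795, Zfp37 at 0.758, Zfp11 at 0.742 and Zfp467 at 0.691. Zfp423 encodes a partner of EBF1 that acts in fat and nerve cells.

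A single short read from sequence with an exact copy elsewhere cannot be placed by itself, so repeats were counted. Within 200 bp of the TSS, 18 of the 167 members held a word of 50 bases that occurs elsewhere in the genome, 8 of the 109 bound and 10 of the 58 unbound. Over 10% of these words were repeated at 4 bound and 7 unbound members. At Zfp97, which was bound, all of them (100.0%) were. Its single peak and those of Zfp345, with 63.8% repeated, Zfp442, with 37%, and Zfp141, with 20.2%, may therefore be less certain. The count takes each read alone, whereas paired ends can be placed by a mate outside the copy. It also leaves out copies that differ by any base, and was made only around the TSS of the longest transcript. Without the 18 members the shares were 61.5% of clustered and 74.6% of isolated members. How the authors treated such reads is not given in the sources used here, and their part in the unbound genes was not tested.

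Members with a KRAB box pattern were bound in 33 of 53 cases, or 62.3% (48.8 to 74.1), and those without in 76 of 114, or 66.7% (57.6 to 74.7), a difference of -4.4 points (-20.1 to 10.5). Among isolated members 10 of the 12 with the pattern were bound, among clustered ones 23 of 41. The share was 77.5% (62.5 to 87.7) of the 40 members with 1 to 6 fingers, 63.8% (52 to 74.1) of the 69 with 7 to 12, and 60.8% (47.1 to 73) of the 51 with more. These intervals overlap. A hand-picked and incomplete list of 16 symbols covered genes for proteins that work with KRAB zinc finger proteins, with both records of Atf7ip. Of its 17 records 15 were bound, or 88.2% (65.7 to 96.7), beside 39.6% of all protein-coding genes. The CpG ratio was 0.7 or more at 14 of the 17, and in such ranges 72.5% and 77.4% of all protein-coding genes were bound. Among the bound were Trim28, with its nearest peak middle at 451 bp from a TSS, Setdb1, a histone methyltransferase, at 56 bp, and Cbx1, which encodes a heterochromatin protein, at 0 bp. Chd4, a remodeler of the NuRD complex, had 3 peaks. Both records of Atf7ip, the partner of Setdb1, were unbound.

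Of a hand-picked and incomplete list of 26 members with a textbook role, 21 were bound, or 80.8% (62.1 to 91.5). This interval includes the 65.3% of all members and lies above the 39.6% of all protein-coding genes. Most of the 26 had a CpG ratio of 0.7 or more, and in such ranges 72.5% and 77.4% of all protein-coding genes were bound. Several of the 26 act in lymphocytes or blood. Zfp318, which is needed for IgD on mature B cells, had 2 peaks, the nearest 3 bp from a TSS. Zfp384, the mouse counterpart of a gene that is fused in B cell precursor leukemia, had a peak at 221 bp, and Zfp335, which is needed for T cell maturation, 2 peaks, the nearest at 35 bp. Zfp36, Zfp91, a ubiquitin ligase, and Zfp341, a regulator of STAT3, were bound as well, at 56, 106 and 126 bp. Zfp410, known for activating Chd4, had a peak at 39 bp, and Zfp207, a mitotic spindle protein, at 8 bp. The 5 unbound genes were Zfp42, Zfp57, which keeps imprinted methylation, Zfp365, Zfp423 and Zfp462, with their nearest peaks at 1200.9, 41.3, 363.9, 159.1 and 338.4 kb. No measure of expression was analysed here, so binding cannot be set beside the activity of these genes.

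The 142 peaks were searched for 10 short words on both strands, and only the SP1 word had an interval that left out its share in all gene-proximal peaks. The ETS word CCGGAAG was found in 24.6% (18.3 to 32.3) of them and in 20.2% of all 10073 gene-proximal peaks, and the NFY word CCAAT in 25.4% (18.9 to 33.1) and 30%. The SP1 word GGGCGG was less frequent, in 52.8% (44.6 to 60.8) against 68.6%, with 42.2% in peaks at clustered and 61.5% at isolated members. The CRE word TGACGTCA was found in 5.63% against 3.35%, the NRF1 word GCGCATGC in 5.63% against 5.8%, the YY1 word AAGATGGC in 3.52% against 5.08% and the E box CACGTG in 4.23% against 8.06%. The FOXK word TGTTTAC was in 0 of 142 peaks (0 to 2.63) against 2.09%, the TATA word TATAAA in 0.704% against 2.41% and the ZBTB33-type word TCTCGCGA in 1.41% against 2.14%. In windows of 200 bp around the TSS of unbound members the SP1 word stood in 27.6%, beside 40% of all protein-coding genes, and the ETS word in 8.62% beside 8.9%. The NRF1 word stood in 10.3% (4.83 to 20.8) of these windows beside 2.43%, and in 2.75% of the windows of bound members. It was the only word of the 10 whose interval at unbound members left out the share of all protein-coding genes. A match of letters is no evidence that the factor was there.

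A pair of words not on that list recurred at these genes. All 32896 possible words of 8 bases were counted, and TCTGGGAA and GGACTACA, chosen after this count, had the highest ratio to gene-proximal peaks at no Zfp gene among the words in at least 10 of the peaks. They were in 14 and 12 of the 142 peaks, or 9.86% and 8.45%, against 1.49% and 1.38% of 9784 peaks at no Zfp gene. Because the words were selected on the member peaks, those shares are a description only. In the 126 peaks at Zfp genes numbered 500 or more, which did not enter the choice, either word was found in 11, or 8.73% (4.94 to 15), against 2.73% of peaks at no Zfp gene. Many of these genes neighbor members and may share ancestry with them, which was not measured, so they cannot be taken as an independent set.

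The words also stood at unbound members. Either word was present in a peak of 22 of the 109 bound members (20.2%), 16 of them clustered and 6 isolated, with 9 on chromosome 7 and 6 on chromosome 13. The windows around the TSS of unbound members held either word in 8 of 58 cases, or 13.8% (7.16 to 24.9), and those of all protein-coding genes in 2.81%. In the same windows around the TSS of bound members it stood in 14 of 109, or 12.8%. Bound minus unbound was -0.949 points (-13.2 to 9.11) in these windows, and 6.39 points (-6.48 to 17.2) when the bound members were taken by their peaks. In the cluster of Zfp235 the words stood at bound genes (Zfp180, Zfp235 and Zfp94) and at unbound ones (Zfp112, Zfp111 and Zfp93).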

How the data were processed

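ChIP-Seq reads (paired ends of 50 bases, Illumina HiSeq) were mapped by the authors to mm9 with Bowtie 1.0.0, and peaks were called against input DNA with MACS, version 1.4.2 in the submitters' processing notes. The file deposited by the authors holds 1 list for both immunoprecipitations, with chromosome, start, end and name, and other than positions no measured value. The threshold of the caller and the rule that combined the samples are not given in the sources used here. A stricter one would list fewer peaks and could lower every share. The depth is unknown.

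Peaks were compared with the TSSs of all GENCODE M1 transcripts (NCBIM37). Members were protein-coding records named Zfp and a number below 500. Clusters were formed by gaps between gene bodies of at most 100 kb. Fingers (Cys, 2 or 4 residues, Cys, 12 residues, His, 3 to 5 residues, His) and the KRAB pattern were counted in translations of the longest GENCODE coding sequence, since no RefSeq protein table was used here. Repeated words of 50 bases were found with blastn 2.17.0. Python 3.11.15, scipy 1.17.1 and pysam 0.24.0 were used, and the scripts were checked on simulated positions. No test was run, because genes are not replicates. Columns without a sample numbered 0.

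Genes named in the text were members with 2 or more peaks (as counts, with examples), members of clusters of 4 or more Zfp genes in which some members were bound and others not, the extremes of CpG ratio, members with textbook roles (26 of 27 symbols found) and those nearest to the 1 kb limit. The uniform clusters, the divergent examples and those on the scanned words, with their windows, were chosen after their values were seen. The members, the lists and the contrast were chosen with earlier results of these data known. Alternatives varied the point of the peak, the window, the TSSs and the definition of a cluster.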

Additional observations from a re-analysis of the deposited data

How the results depend on the processing

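The share of members bound ranged from 62.9% to 70.1% over 8 alternatives, and the shares of clustered and isolated members from 58% to 67.4% and from 66.7% to 74.6% over 12 each, all within the intervals given for the values reported. The difference between clustered and isolated members ranged from -14.1 to 1.47 points over 18 alternatives. It was -13.4 points with each cluster counted once, -7.12 with only peaks nearest to the member itself, -5.66 with a window of 5 kb, 1.47 (-20.2 to 22.5) among members below the median CpG ratio of 0.631 and -7.76 (-24.9 to 7.84) among the others. Without members that have an opposite-strand TSS within 1 kb it was -7.29 (-22.2 to 8.47). With the highest CpG ratio of any TSS it was -3.28 points under 0.7 and -4.47 at or above. Leaving out members with repeated words of 50 bases gave -13.1, and leaving out the second record of Zfp319 gave -13.2. These last 4 values were added after seeing the data. The median distance to the TSS was 42 bp, but 0 bp from the nearest edge of the peak, which often spans the TSS, and 56 bp from the TSS of the longest transcript. A stricter peak threshold was not run, because the list has no score. No paired analysis was possible because 1 pooled list holds no samples to pair. Binding at 58 unbound members was not detected at an unknown depth, and is not shown to be absent.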
